A study of Homo sapiens with 4 samples.

Results

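RNA levels of 10 human genes that write or read the repressive histone mark H3K9 methylation were followed upon knockdown of HMGB1. The set comprised the methyltransferase genes SUV39H1, SUV39H2, SETDB1, EHMT1 and EHMT2, the HP1 genes CBX1, CBX3 and CBX5, the corepressor gene TRIM28 and the remodeler gene ATRX. They were chosen by name, each had 1 row on a primary chromosome among the 63677 genes of the count tables, and all 10 were among the 15398 genes with enough counts for testing. The cells were IMR90, normal human fetal lung fibroblasts, of 2 isolates, I90-10 and I90-79, at passage 5. Each isolate received either a non-targeting control siRNA or siRNA against HMGB1 for 72 h (the study's methods name 2 siRNAs for these cells, and which library received which is not given in the sources used here), which gave 2 control and 2 knockdown libraries of poly(A)-selected RNA. The control libraries held 29869338 and 35317010 assigned reads, and the knockdown libraries 29861687 and 31086475, in the order I90-10, I90-79. This order is kept wherever 2 values per group are given. A knockdown by siRNA is transient and lowers an RNA without removing the gene, and the counts measure RNA, not protein or the histone mark itself.

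Methylation of lysine 9 on histone H3 marks silent chromatin. SUV39H1 and SUV39H2 place the trimethyl mark at pericentromeric repeats, SETDB1 places it at transposable elements and zinc finger gene clusters where TRIM28 recruits it, and EHMT2 (G9a) and EHMT1 (GLP) act as a heterodimer that places the mono- and dimethyl marks at genes. The HP1 proteins HP1β, HP1γ and HP1α, encoded by CBX1, CBX3 and CBX5, bind the mark through a chromodomain and compact the fiber, and ATRX with its partner DAXX deposits a histone H3 variant in the same domains. In senescent fibroblasts HP1 proteins gather in heterochromatic foci, and HMGB1, an abundant DNA-bending chromatin protein, leaves the nucleus.

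The targeted gene was examined first. HMGB1 (ENSG00000189403, chr13:31032884-31191734, minus strand) was at 181 and 237 CPM (reads of the gene per 1000000 reads of the library after TMM scaling) in control and at 16.0 and 18.9 CPM in knockdown libraries. It fell by 3.59 on the log2 scale (SE, the standard error, 0.19, 12.0-fold, edgeR adjusted p = 0.0075), and both libraries labelled as knockdown held the lower values. Cell identity was checked with marker genes. All 7 fibroblast markers were tested, COL1A1 was the most abundant, and their summed level was 33221 and 17580 CPM in control and 31645 and 19946 CPM in knockdown libraries. This sum is carried by the collagens, and none of the 7 was called by edgeR or DESeq2 or had an unadjusted p below 0.05. RUVs with DESeq2 called 2, COL3A1 and FAP, both higher, against 10.4% of all genes called in either direction. The surface markers THY1 and PDGFRB were lower upon knockdown in both isolates. THY1 was at 423 and 200 CPM in control and at 229 and 93.3 CPM in knockdown libraries (log2-fold change −0.95, SE 0.53, adjusted p = 0.297), and PDGFRB at 186 and 92.5 CPM against 103 and 64.9 CPM (−0.73, SE 0.38, adjusted p = 0.277). Both were called with the replicate block, at adjusted p of 3.1e-04 and 0.0026, but with 1 library left out THY1 lay between −1.74 and −0.31 and PDGFRB between −1.15 and −0.14. In contrast, COL3A1 and FAP were higher in both isolates (0.40 and 0.47, adjusted p = 0.402 and 0.340). The part of these shifts in the levels of the 10 genes was not tested. Of the endothelial markers found in the tables, CDH5 was at or under 3 counts in every library, whereas TEK stood at 148 ± 0.640 CPM in control and 132 ± 0.399 CPM in knockdown libraries (SD, n = 2). VWF was at 1.36 and 0.923 CPM in control and 4.16 and 2.59 CPM in knockdown libraries (log2-fold change 1.57, SE 0.38, adjusted p = 0.0681). With the replicate block it was called as upregulated (1.55, adjusted p = 0.0036), as it was by RUVs with DESeq2. The 4 epithelial markers summed to 6.20 and 1.30 CPM in control and 4.09 and 1.15 CPM in knockdown libraries, with KRT19 the most abundant on average and CDH1 and SFTPC at or under 3 counts everywhere. The 3 blood cell markers summed to at most 0.208 CPM, with PTPRC and CD3E at or under 3 counts. The part of TEK and VWF expression in the results was not tested.

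Upon HMGB1 knockdown CBX5 RNA was lower and CBX1 RNA higher in both isolates, whereas CBX3 RNA overlapped between groups. The difference between the HP1 genes was not tested. Among the writers, SUV39H1 and SUV39H2 RNA was higher in both isolates, and the other methyltransferase genes stayed within a log2-fold change of 0.21 in either direction. None of the 10 genes was called (adjusted p below 0.01 together with a log2-fold change beyond 0.6 in either direction) in edgeR's quasi-likelihood test, against 0.201% of all genes tested (31 genes). At an unadjusted p below 0.05 there were 2, SUV39H2 and CBX5, where 28.3% of all genes tested stood. DESeq2 alone and RUVs with 1 factor followed by DESeq2 each called 1, CBX5, against 10.0% and 10.4% of all genes, so these counts did not exceed the background. The study's methods name RUVs and DESeq2 but no number of factors, so the RUVs fit here is not the study's own. With the isolate as a replicate block, edgeR called SUV39H2 as upregulated and CBX5 as downregulated, where 6.68% and 7.84% of all genes were called in those directions. Knockdown and control values did not overlap for 6 genes with higher and 3 genes with lower levels in knockdown libraries, among all genes 29.8% and 30.2%. The median log2-fold change of the 10 genes was 0.18 (7 higher, 3 lower), and that of all genes tested was −0.01. The plot of CPM by library shows the 4 values of each gene.

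**Figure D1:**
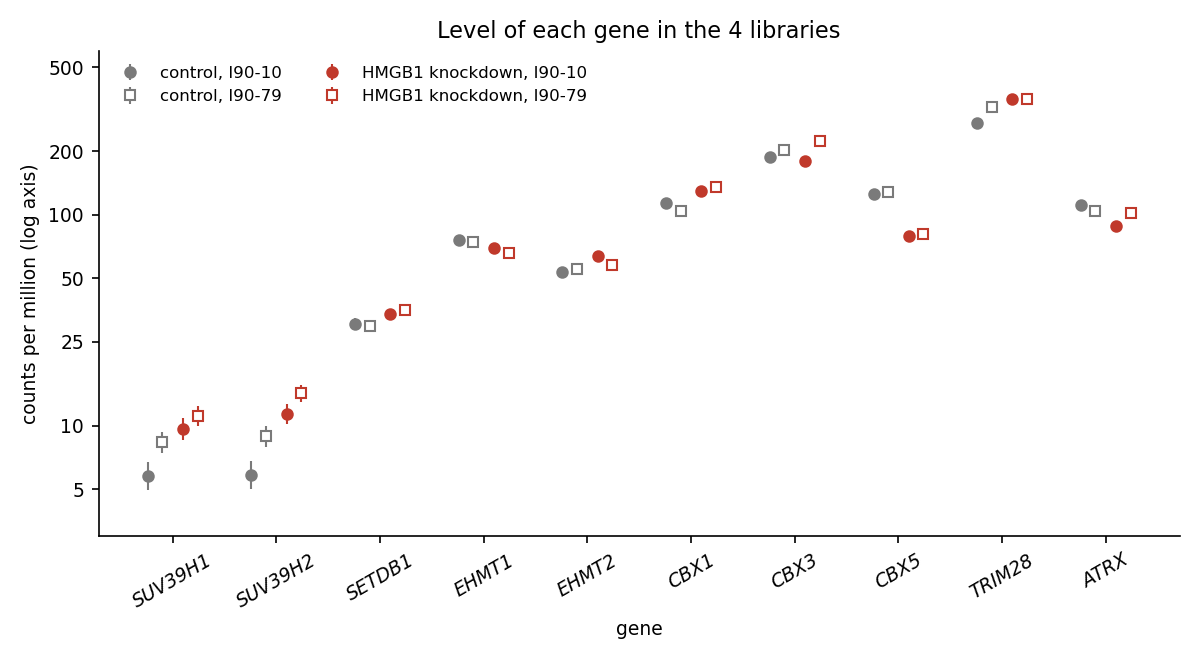
CPM on a log axis for each of the 10 genes in the 4 libraries. Gray symbols are control and red symbols knockdown, filled circles I90-10 and open squares I90-79, and bars are 95% Poisson intervals, which cover counting error only and are hidden by most symbols. CBX5 sits near 127 CPM in control and near 80.5 CPM in knockdown libraries, and only the red and gray symbols of CBX3 interleave.

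CBX5 (ENSG00000094916, chr12:54624724-54673886, minus strand) encodes HP1α, the paralog most closely tied to pericentromeric heterochromatin. Its level was 125 and 129 CPM in control libraries and 79.7 and 81.3 CPM in knockdown libraries. The knockdown libraries lay together well under the controls, and the isolates differed by far less than the groups. In bulk RNA, fewer cells that express a gene and less RNA per cell cannot be told apart, here and for all genes below. From 127 ± 2.87 to 80.5 ± 1.08 CPM (SD, n = 2) the edgeR log2-fold change was −0.66 (SE 0.10, 1.58-fold, adjusted p = 0.0282). It was one of the 693 genes, 4.50% of those tested, that were lower at an adjusted p below 0.05. The adjusted p was 0.0013 with the replicate block and 2.2e-04 in DESeq2, and over all alternatives it lay between 2.3e-05 and 0.145, the highest being 0.139 and 0.145 with 1 knockdown library left out. The log2-fold change itself lay between −0.69 and −0.64 when any 1 library was left out.

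CBX1 (ENSG00000108468, chr17:46147414-46178883, minus strand) encodes HP1β, found in both hetero- and euchromatin. It stood at 114 and 104 CPM in control and at 130 and 136 CPM in knockdown libraries. Both knockdown values were above both control values, with a log2-fold change of 0.29 (SE 0.11, edgeR adjusted p = 0.178, and 0.0582 with the replicate block). CBX3 (ENSG00000122565, chr7:26240782-26252976, plus strand) encodes HP1γ, which is also found along transcribed genes. Its level was 188 and 204 CPM in control and 181 and 225 CPM in knockdown libraries. Here the spread between isolates exceeded that between groups, and the log2-fold change was 0.05 (SE 0.15, adjusted p = 0.851). It was slightly lower upon knockdown in I90-10 and higher in I90-79, at −0.05 and 0.14 on the log2 scale.

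The 3′ UTR of CBX5 is long, with 10813 bases in the canonical transcript (GENCODE, on GRCh37), against 1376 in CBX1 and 1399 in CBX3. It holds 5 copies of the 6-base word GCAGTT, or 0.462 per kb, against 0.288 per kb over 12358 tested genes whose 3′ UTR has at least 100 bases. This word was known from an earlier look at these data to go with lower RNA upon knockdown, so its relation to the fold changes is given as a description and supports nothing by itself. Of the other 9 genes, ATRX holds 2 copies, CBX3 1 copy and the remaining 7 none. Of these sites, 7 are shown in the direction of the transcript, 30 bases each, with the word in capitals, to let the reader compare what surrounds it in the genes that carry it.
CBX5, chr12:54634419-54634448, minus strand: taagtgttcataGCAGTTatgtctcctgca
CBX5, chr12:54630313-54630342, minus strand: agccagtgtattGCAGTTtcatgctacctt
CBX5, chr12:54629424-54629453, minus strand: actctgagcagtGCAGTTttattcaatact
CBX5, chr12:54626516-54626545, minus strand: tgactttcagaaGCAGTTcatttttccaag
CBX3, chr7:26252717-26252746, plus strand: ttagaggtgttgGCAGTTtaggacctgctg
ATRX, chrX:76763183-76763212, minus strand: tggagaagtcttGCAGTTatcttagcattg
ATRX, chrX:76760692-76760721, minus strand: aaaactttaagaGCAGTTacattctgtccc
Beyond the word itself the flanking bases of the 7 sites differ from each other. The 4 copies shown for CBX5 are spread over its 3′ UTR, at bases 1103, 5209, 6098 and 9006 counted from its first base.

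Across all genes, the median log2-fold change was 0.07 for 7881 genes without the word, −0.10 for 2714 genes with 1 copy, −0.22 for 1043 genes with 2 and −0.32 for 720 genes with 3 or more, of which 69.7% were lower in knockdown libraries. Copies go with UTR length. In 3′ UTRs of 5000 bases or more the median was 0.07 for 145 genes without the word and −0.06 for 921 genes with it. CBX5, at −0.66, lay between the lower quartile of the genes with 3 or more copies, −0.79, and their median. The 3 genes of the set with the word had a median of −0.19, 2 of them lower, and the 7 without it a median of 0.25, 1 of them lower. The part of the word in the level of CBX5 or ATRX was not tested. The plot of change by word copies places the 10 genes on the distribution of all genes.

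**Figure D2:**
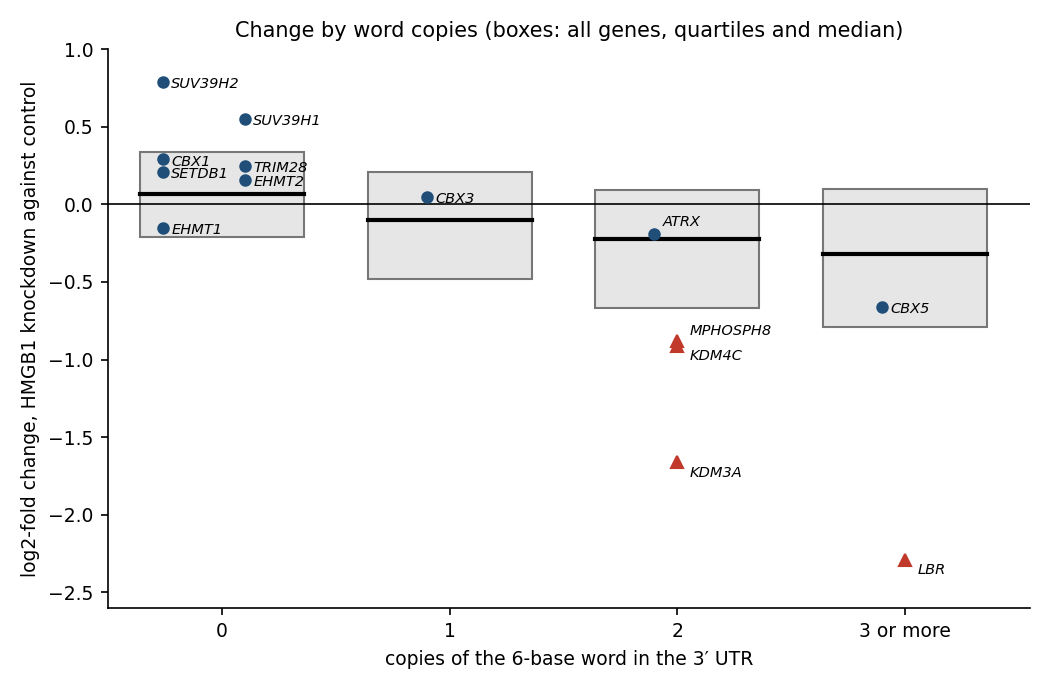
Log2-fold change upon HMGB1 knockdown (vertical axis) by the number of copies of the 6-base word in the 3′ UTR (horizontal axis). Gray boxes give the quartiles and black lines the median of all genes with that number of copies, blue circles the 10 genes and red triangles LBR, KDM3A, KDM4C and MPHOSPH8. The triangles are the genes of 7 wider heterochromatin lists that DESeq2 called, all of them lower. They do not stand for all genes of these lists with the word. Of 19 such genes 16 were lower, and MECOM, DNMT3A and CHAF1B, which are not drawn, were higher. The median of all genes goes from 0.07 without the word to −0.32 with 3 or more copies, and 6 of the 7 blue circles without the word lie above 0.

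SUV39H2 (ENSG00000152455, chr10:14920819-14946314, plus strand) showed the largest positive difference of the set. Its level was 5.86 and 8.93 CPM in control and 11.4 and 14.3 CPM in knockdown libraries. The groups did not overlap, and in each group I90-79 was above I90-10. The log2-fold change was 0.79 (SE 0.27, 1.73-fold, edgeR adjusted p = 0.129). With the replicate block it was 0.81 (SE 0.16, adjusted p = 0.0058), past the thresholds, and over all alternatives the adjusted p lay between 0.0058 and 0.408. Within I90-10 and I90-79 the log2-fold change was 0.95 and 0.67, and it was 0.52 without the I90-10 control and 1.13 without the I90-79 control. SUV39H1 (ENSG00000101945, chrX:48553945-48567403, plus strand), its paralog, was at 5.79 and 8.36 CPM in control and at 9.66 and 11.1 CPM in knockdown libraries. Again both knockdown libraries were above both controls and I90-79 above I90-10. Its log2-fold change was 0.55 (SE 0.24, 1.47-fold, edgeR adjusted p = 0.207, and 0.0316 with the replicate block), with 0.73 and 0.41 within the isolates, and 0.31 and 0.85 without the I90-10 and the I90-79 control. A part of its exonic bases, 20.3%, lies in another annotated gene (ENSG00000232828), and the strand setting of the counting is not given in the sources used here.

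SETDB1 (ENSG00000143379, chr1:150898739-150937213, plus strand) was at 30.4 and 29.7 CPM in control and at 33.8 and 35.5 CPM in knockdown libraries. The groups were separate but close, at a log2-fold change of 0.21 (SE 0.12, edgeR adjusted p = 0.302). It shares 13.4% of its exonic bases with the neighboring gene CERS2. EHMT2 (ENSG00000204371, chr6:31847536-31865464, minus strand) was at 53.8 and 55.4 CPM in control and at 64.2 and 57.7 CPM in knockdown libraries, with a log2-fold change of 0.16 (SE 0.12, adjusted p = 0.420). EHMT1 (ENSG00000181090, chr9:140513444-140764468, plus strand) was at 76.0 and 74.6 CPM in control and at 69.9 and 66.1 CPM in knockdown libraries, with −0.15 (SE 0.11, adjusted p = 0.417). The subunits of this heterodimer thus lay on opposite sides of 0, each by less than 2 standard errors. Within each library the ratio of EHMT2 to EHMT1, per kb of exon, was 1.48 and 1.55 in control and 1.92 and 1.83 in knockdown libraries.

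TRIM28 (ENSG00000130726, chr19:59055458-59062089, plus strand), the scaffold that links KRAB zinc finger proteins to SETDB1 and HP1, was at 272 and 324 CPM in control and at 353 and 354 CPM in knockdown libraries. The knockdown libraries were nearly equal, whereas the controls differed between isolates. The log2-fold change was 0.25 (SE 0.14, edgeR adjusted p = 0.306). ATRX (ENSG00000085224, chrX:76760356-77041702, minus strand) was at 112 and 104 CPM in control and at 88.4 and 102 CPM in knockdown libraries. Both knockdown values were under both controls, but in I90-79 by a log2-fold change of −0.04 only, against −0.35 in I90-10, and the overall value was −0.19 (SE 0.12, adjusted p = 0.371). The plot of fold changes sets the estimate of each gene beside its values in the 2 isolates.

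**Figure D3:**
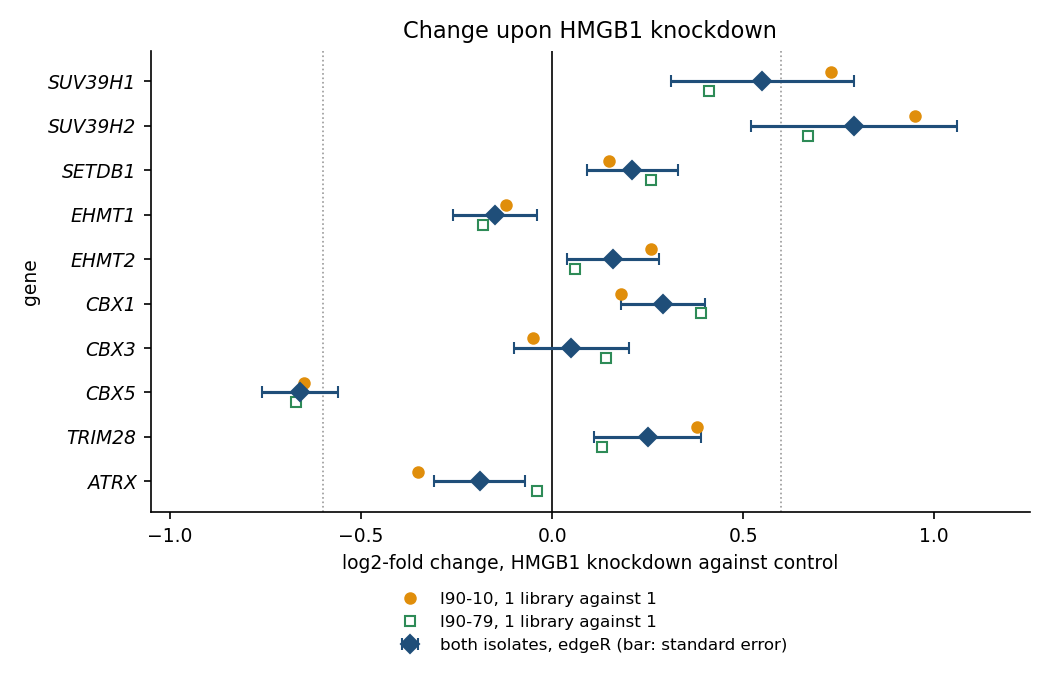
Log2-fold change upon HMGB1 knockdown (horizontal axis) for each gene. Diamonds are the edgeR estimates with their standard errors, filled circles and open squares the difference of 1 knockdown and 1 control library within I90-10 and I90-79, and dotted lines the fold change threshold of 0.6. CBX5 has its 3 symbols between −0.67 and −0.65, SUV39H2 between 0.67 and 0.95, and the symbols of CBX3 lie on both sides of 0.

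For comparison between genes, CPM were divided by the exonic length over which reads were counted. In control libraries the order was TRIM28 at 73.8, CBX3 at 42.2, CBX1 at 35.3, CBX5 at 10.2, ATRX at 8.85, EHMT2 at 7.49, EHMT1 at 4.93, SETDB1 at 4.24, SUV39H1 at 2.10 and SUV39H2 at 2.07 CPM per kb. Neighbors in this order did not overlap in their 2 control values, except SUV39H1 and SUV39H2. TRIM28 stood above 96.7% of all genes tested on this scale, and SUV39H2 above 36.9%. In knockdown libraries CBX5, at 6.44 CPM per kb, came after EHMT2 at 8.36 and ATRX at 7.77, which overlapped. CBX3 and CBX1 overlapped at 43.8 and 43.0, as did SUV39H2 and SUV39H1 at 3.60 and 3.09. The exonic length covers all annotated isoforms, 12508 bases for CBX5, which the cells need not all express.

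The makeup of the HP1 transcripts was compared within libraries. CBX5 gave 11.4% and 11.8% of the summed CPM per kb of the 3 HP1 genes in control libraries and 7.29% and 6.57% in knockdown libraries. CBX1 gave 42.3% and 38.3% in control and 48.1% and 44.5% in knockdown libraries, and the share of CBX3 overlapped between groups. The summed level was 87.5 and 87.9 CPM per kb in control and 87.5 and 99.0 in knockdown libraries, and thus overlapped. The ratio of CBX1 to CBX5 was 3.70 and 3.25 in control and 6.60 and 6.77 in knockdown libraries, and that of CBX3 to CBX5 was 4.04 and 4.25 against 6.13 and 7.46. The ratio of CBX3 to CBX1 overlapped, at 1.09 and 1.31 against 0.928 and 1.10. With 2 libraries against 2, an exact two-sided permutation test cannot go below p = 0.333, so these ratios carry no call. For the writers, the summed level of the 5 methyltransferase genes was 20.8 ± 1.19 CPM per kb in control and 24.4 ± 0.256 in knockdown libraries (SD, n = 2), without overlap. Of this sum SUV39H2 gave 8.21% and 11.6% in control and 13.2% and 16.3% in knockdown libraries, and EHMT1 24.9% and 22.6% against 18.9% and 17.6%.

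**Figure D4:**
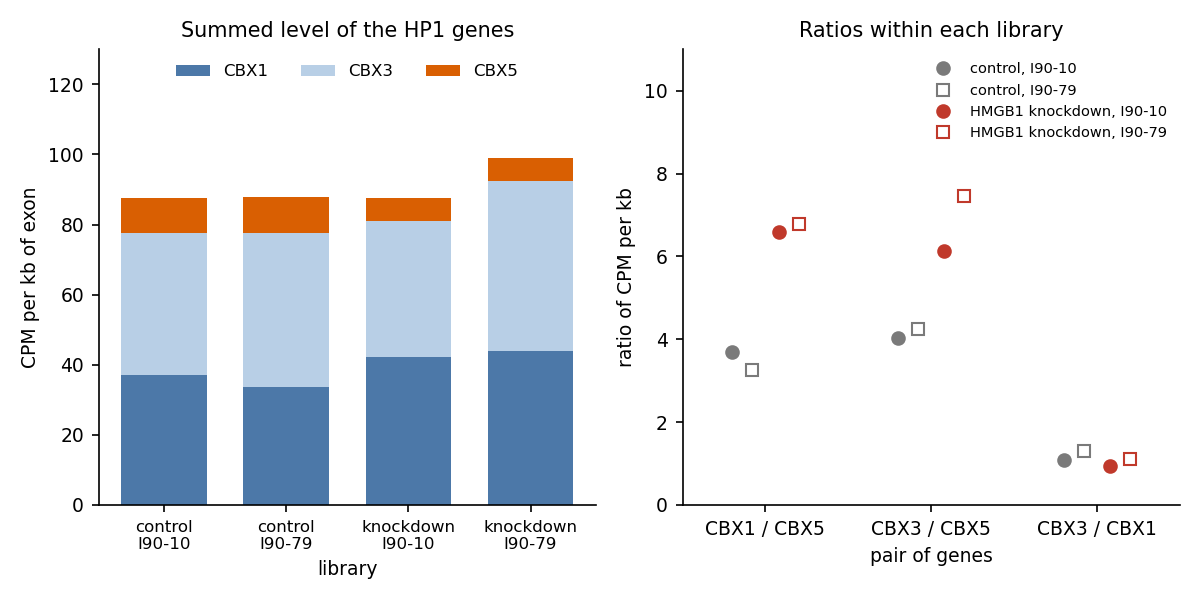
Left, CPM per kb of exon of CBX1, CBX3 and CBX5 stacked for each library. Right, ratios of these levels within each library (gray control, red knockdown, filled circles I90-10, open squares I90-79). The CBX5 segment shrinks from 11.4% and 11.8% of the sum to 7.29% and 6.57%, both ratios to CBX5 are higher in knockdown libraries, and the ratio of CBX3 to CBX1 overlaps.

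SUV39H2 and CBX5, the genes called with the replicate block, both start head to head with another gene on the opposite strand. The arrangement is not particular to them. EHMT1 and EHMT2, which were not called, start 86 and 98 bases from ARRDC1-AS1 and C2, and CBX3 overlaps HNRNPA2B1 at its start. SUV39H2-DT, a divergent transcript, starts 134 bases from SUV39H2, and HNRNPA1, which encodes an abundant RNA-binding protein of splicing, starts 91 bases from CBX5. The RefSeq promoter windows, 250 bases before to 50 bases after the annotated start (table of GRCh38.p14), were placed on GRCh37 by exact match and are shown because the start sites of both partners fall inside them. They read in the direction of SUV39H2 or CBX5, and capitals mark a CCAAT box (here as ATTGG on this strand).
SUV39H2, chr10:14920615-14920914, plus strand: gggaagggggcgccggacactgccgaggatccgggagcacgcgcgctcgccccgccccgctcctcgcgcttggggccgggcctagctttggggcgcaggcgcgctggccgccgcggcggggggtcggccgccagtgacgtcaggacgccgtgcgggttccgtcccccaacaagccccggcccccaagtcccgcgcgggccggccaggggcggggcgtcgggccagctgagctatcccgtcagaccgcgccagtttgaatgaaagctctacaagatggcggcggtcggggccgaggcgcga
CBX5, chr12:54673857-54674156, minus strand: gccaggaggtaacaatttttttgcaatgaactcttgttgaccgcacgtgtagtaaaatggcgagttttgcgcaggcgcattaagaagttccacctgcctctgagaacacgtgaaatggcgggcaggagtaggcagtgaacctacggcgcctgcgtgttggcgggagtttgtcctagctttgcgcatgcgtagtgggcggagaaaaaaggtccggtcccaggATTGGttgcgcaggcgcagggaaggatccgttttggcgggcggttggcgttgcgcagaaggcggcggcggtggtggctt
Counted from the first base shown, SUV39H2-DT starts at base 71 and SUV39H2 at base 205, whereas HNRNPA1 starts at base 180 and CBX5 at base 271. Neither window holds an E2F-type word (TTTCCCGC, TTTGGCGC, TTTCGCGC or TTTGCCGC on either strand), which 3.31% of 35116 RefSeq promoter windows hold, and 34.6% hold CCAAT. Of the 8 genes of the set with an entry in the table, CBX3 holds 1 E2F-type word, at base 247. TRIM28 and ATRX have no entry.

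The neighbors were looked up after the values of the 10 genes were known, as all genes starting on the opposite strand within 1000 bases. SUV39H2-DT was near the detection limit, with 0.170 and 0.217 CPM in control and 0.658 and 0.897 CPM in knockdown libraries (5, 8, 19 and 28 reads). It had enough reads for testing only through the knockdown libraries, so its higher level there is given as a description with no test. HNRNPA1 was at 819 and 883 CPM in control and at 624 and 707 CPM in knockdown libraries, with a log2-fold change of −0.35 (SE 0.14, adjusted p = 0.187, and 0.0230 with the replicate block). HNRNPA1 holds 3 copies of the word GCAGTT in its 3′ UTR, and HNRNPA2B1 holds 1 copy. HNRNPA2B1, which overlaps the start of CBX3 head to head, was at 623 and 791 CPM in control and at 729 and 886 CPM in knockdown libraries, with 0.19 (SE 0.19, adjusted p = 0.549). ARRDC1-AS1, beside EHMT1, had a log2-fold change of −0.12 (adjusted p = 0.729), whereas C2, a complement gene beside EHMT2 and also under 1 CPM in every library (16, 15, 3 and 6 reads), had enough reads only through the control libraries and is likewise given with no test. RN7SL525P, beside TRIM28, had no reads.

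The isolates were compared with the siRNA as a term in the model, on the same 4 libraries. None of the 10 genes was called between I90-79 and I90-10 in edgeR, against 1.67% of all genes, and DESeq2 called none either, against 2.92% of all genes. In edgeR 1 gene, SUV39H2, had an unadjusted p below 0.05, as had 22.2% of all genes. SUV39H2 had the largest positive value, with a log2-fold change of 0.46 (SE 0.16, adjusted p = 0.128), followed by SUV39H1 with 0.36 (SE 0.16, adjusted p = 0.245). Other markers moved with the isolate. All 7 fibroblast markers were lower in I90-79, 6 of them at an adjusted p below 0.05 (6.79% of all genes), and 4 were called. Of the proliferation markers, all 14 were higher in I90-79, 7 of them at an adjusted p below 0.05, and their summed level was 762 and 1322 CPM in control and 881 and 1079 CPM in knockdown libraries, with TOP2A the most abundant. Upon knockdown 7 of the 14 were higher and 7 lower (median log2-fold change 0.06), and edgeR called none, with 2 at an unadjusted p below 0.05. DESeq2 called 1 and RUVs with DESeq2 called 5, of which 1 was up- and 4 were downregulated, against 10.0% and 10.4% of all genes. The part of proliferation in the levels of the 10 genes was not tested. These directions depended on the libraries used. Without the I90-10 control 1 was higher and 13 lower (median −0.33), without the I90-79 control 9 were higher and 5 lower (0.58), and with RUVs and DESeq2 4 were higher and 10 lower (−0.23). Of the 14, PCNA, the replication clamp, had the smallest p, at 90.1 and 121 CPM in control and 51.7 and 53.5 CPM in knockdown libraries and a log2-fold change of −1.01 (SE 0.17, adjusted p = 0.0320). MCM7, a subunit of the replicative helicase, was at 57.9 and 108 CPM against 143 and 178 CPM, with 0.96 (SE 0.31, adjusted p = 0.121). With the replicate block both passed the thresholds, at adjusted p of 6.1e-04 and 0.0012.

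The other genes of the pathway were taken from 7 lists of 42 genes, all of them tested. Of these, 13 were higher and 29 lower upon knockdown, with a median log2-fold change of −0.16. Only LBR was called, against 4 genes in DESeq2, all of them lower (5.31% of all genes were called lower in DESeq2), and with the replicate block 0 were called as up- and 6 as downregulated (6.68% and 7.84% of all genes). LBR encodes the lamin B receptor, an inner nuclear membrane protein that binds HP1 and tethers heterochromatin to the nuclear envelope. It was at 74.7 and 81.1 CPM in control and at 16.9 and 15.0 CPM in knockdown libraries, far below in both isolates. It fell by 2.29 on the log2 scale (SE 0.13, 4.88-fold, edgeR adjusted p = 0.0075), and its 3′ UTR holds 3 copies of GCAGTT. With either knockdown library left out no gene of the whole table was called, and the adjusted p of LBR was at most 0.0487 over all alternatives. Among the 10 HP1 and ATRX partners 5 were higher and 5 lower, but 2 and 8 with RUVs and DESeq2 or without the I90-10 control, and 3 and 7 without the I90-79 knockdown library. ADNP, a partner of HP1 and the remodeler CHD4, was next, at 150 and 134 CPM in control and 104 and 103 CPM in knockdown libraries (log2-fold change −0.46, SE 0.12, adjusted p = 0.0732).

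Of the 6 genes of the HUSH complex and SETDB1 cofactors, 5 were lower and 1 higher (median −0.35). None was called by edgeR, 4 had an unadjusted p below 0.05, all lower (14.7% of all genes), and DESeq2 called 1, MPHOSPH8, lower (5.31% of all genes). MPHOSPH8, the chromodomain subunit of HUSH, was at 64.1 and 67.0 CPM in control and at 33.2 and 37.9 CPM in knockdown libraries, or lower in both isolates. The log2-fold change was −0.88 (SE 0.12, edgeR adjusted p = 0.0225, and 5.2e-04 with the replicate block, where it was called). ATF7IP, which stabilizes SETDB1, was at 57.5 and 49.3 CPM in control and at 37.1 and 31.2 CPM in knockdown libraries, with −0.64 (SE 0.15, adjusted p = 0.0612, and 0.0021 with the block, where it was called). SETDB1 RNA had log2-fold changes of 0.15 in I90-10 and 0.26 in I90-79. SETDB1 protein was not measured, and the part of ATF7IP in its level was not tested.

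Most genes for enzymes that remove the mark had estimates below 0, some of them by very little. Of 11 H3K9 demethylase genes, 10 were lower and 1 higher (median −0.24), where 7756 of all 15398 genes tested were lower. KDM4A, at −0.01 (SE 0.15), and JMJD1C, at −0.06 (SE 0.19), lay within 1 standard error of 0. Values of the groups did not overlap for 7 genes with lower and 1 with higher levels in knockdown libraries, among all genes 30.2% and 29.8%. The list was chosen with earlier results of these data known. None was called by edgeR, 4 had an unadjusted p below 0.05, all lower, and DESeq2 called 2, KDM3A and KDM4C, where 14.7% and 5.31% of all genes were lower by these measures. KDM3A, which removes mono- and dimethyl marks, was at 86.3 and 72.4 CPM in control and at 26.7 and 23.6 CPM in knockdown libraries. Its log2-fold change of −1.66 (SE 0.15, 3.16-fold, edgeR adjusted p = 0.0104) missed the threshold by a small margin, and with the replicate block it was called (adjusted p = 4.9e-05). KDM4C, a demethylase of the trimethyl mark, was at 29.0 and 30.1 CPM in control and at 14.8 and 16.7 CPM in knockdown libraries, with −0.91 (SE 0.14, adjusted p = 0.0264, and 8.4e-04 with the block, where it was called). KDM3A, KDM4C and MPHOSPH8 each hold 2 copies of GCAGTT. Over the 7 lists, 19 genes with the word had a median of −0.47, 16 of them lower, and 22 genes without it a median of −0.04, 13 of them lower. The genes with the word that were higher were MECOM (1 copy, log2-fold change 0.59), DNMT3A (2 copies, 0.22) and CHAF1B (1 copy, 0.19). The part of the word in these values was not tested.

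**Figure D5:**
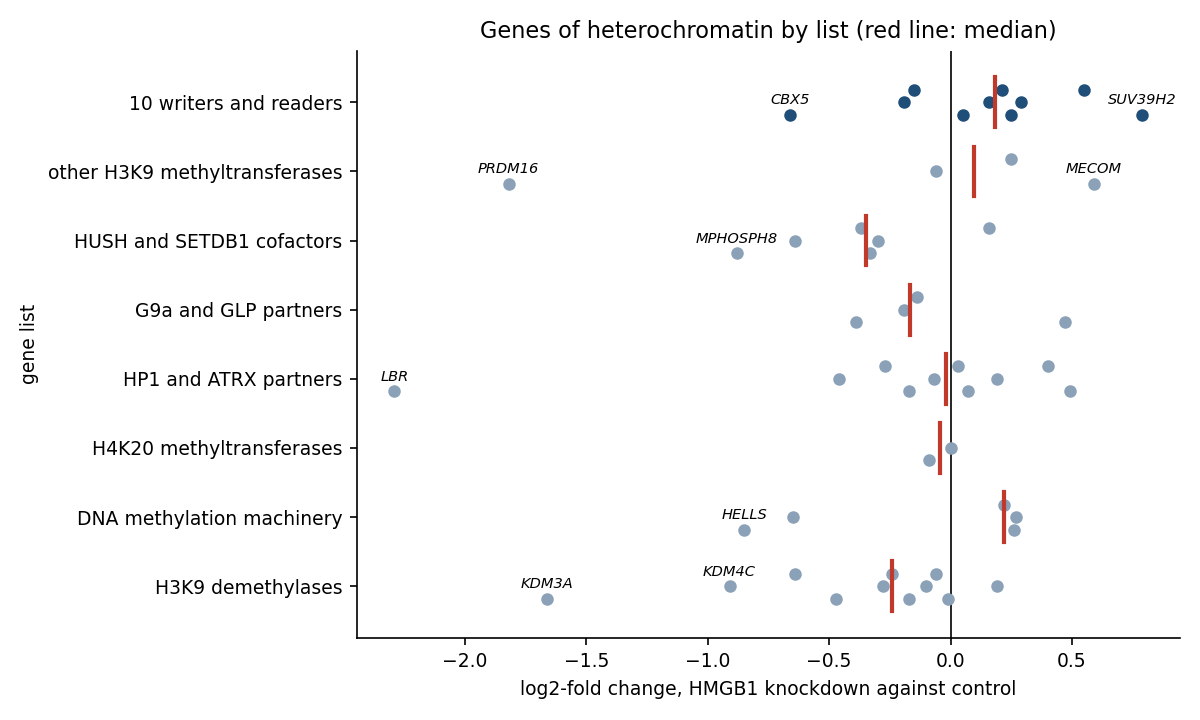
Log2-fold change upon HMGB1 knockdown (horizontal axis) of the 10 genes (dark) and of the genes of 7 further lists (light), 1 point per gene, with the median of each list as a red line. The median is 0.18 for the 10 genes, −0.35 for HUSH and SETDB1 cofactors and −0.24 for H3K9 demethylases, and LBR lies farthest from 0.

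In the remaining lists edgeR and DESeq2 called no gene, and RUVs with DESeq2 called 1, HELLS. Leaving PRDM16 aside, MECOM and CDYL had an unadjusted p below 0.05, as had 28.3% of all genes. Of 4 other H3K9 methyltransferase genes, 2 were higher and 2 lower. MECOM was at 13.7 and 12.8 CPM in control and 21.3 and 18.6 CPM in knockdown libraries, with a log2-fold change of 0.59 (SE 0.15, edgeR adjusted p = 0.0753). PRDM16 was under 1 CPM everywhere (10, 14, 2 and 4 reads). It had enough reads for testing only through the control libraries, so it is given with no test. Of 4 partners of EHMT1 and EHMT2, 1 was higher and 3 lower. CDYL, a chromodomain corepressor, was at 41.3 and 46.9 CPM in control and 62.7 and 59.3 CPM in knockdown libraries (log2-fold change 0.47, SE 0.12, adjusted p = 0.0784), and its paralog CDYL2 was at 10.1 and 11.4 CPM against 7.69 and 8.65 CPM, with −0.39 (SE 0.18, adjusted p = 0.222). The H4K20 methyltransferase genes KMT5B and KMT5C, whose products HP1 recruits, were at −0.09 and −0.00 (adjusted p = 0.667 and 0.995). Of 5 genes of DNA methylation, 3 were higher and 2 lower. HELLS, a remodeler needed for methylation of repeats, was at 7.83 and 14.2 CPM in control and 5.16 and 7.08 CPM in knockdown libraries, with −0.85 (SE 0.34, adjusted p = 0.184, and 0.0088 with the block, where it was called). DESeq2 with the block did not call HELLS (adjusted p = 0.0172), and its log2-fold change lay between −1.22 and −0.35 with 1 library left out. DNMT3B, a de novo methyltransferase, was at 14.1 and 8.33 CPM against 7.86 and 6.40 CPM (−0.65, SE 0.30, adjusted p = 0.227).

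Zinc finger genes of chromosome 19 form the largest clusters marked by SETDB1 and TRIM28. Of 239 genes found, 221 were tested, 59 were higher and 162 lower upon knockdown. None was called by edgeR. At an unadjusted p below 0.05 there were 46, or 20.8%, of which 7 were higher and 39, or 17.6%, lower, against 13.6% and 14.7% of all genes in these directions. DESeq2 called 6, or 2.71%, all lower, and edgeR with the replicate block called 0 as up- and 14, or 6.33%, as downregulated, both below the shares over all genes given above. By contrast, values of the groups did not overlap for 48.0% of the tested genes with lower and 13.1% with higher levels in knockdown libraries. Among all genes these shares were 30.2% and 29.8%. The zinc finger genes had a median log2-fold change of −0.18. Their summed level was 2184 and 2136 CPM in control and 1899 and 2042 CPM in knockdown libraries, so both knockdown libraries were lower. TRIM28 and SETDB1 RNA was not lower in these libraries, and their proteins and the mark were not measured. The part of these 2 genes in the levels of the zinc finger genes was not tested. The tables also list 16 pseudogenes of the 10 genes. None reached a mean of 1 CPM, and the highest was CBX3P2 with 0.349 CPM.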

How the data were processed

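The study used IMR90 lung fibroblasts of 2 isolates, 1 control and 1 HMGB1 siRNA library each. The authors aligned reads with STAR to hg19 (GRCh37) and deposited raw read counts per gene from featureCounts. Tool versions, strand setting and pair handling are not given in the sources used here. Totals were 29861687 to 35317010 reads per library, and Poisson intervals cover counting error only.

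CPM were counts over the library's reads in tested genes times its TMM factor (0.9678 to 1.0443). Genes passing edgeR's filterByExpr were tested with edgeR 4.0.16 (quasi-likelihood, R 4.3.3, limma 3.58.1) for knockdown against control, without a block, with Benjamini-Hochberg adjustment over 15398 genes. Calls required an adjusted p below 0.01 together with a log2-fold change beyond 0.6 in either direction, after the study's methods. DESeq2 1.42.0, RUVs with 1 factor, the isolate as a replicate block, other scalings, filters and each library left out were alternatives. The labels give same-numbered libraries the same isolate, and their deviations correlated at 0.46 over 15398 genes. The block is therefore printed where it changed a call, and also for some genes where it did not. For SETDB1, EHMT1, EHMT2, CBX3, TRIM28 and ATRX, where it is not printed, the edgeR adjusted p with the block lay between 0.0971 and 0.757. With 2 isolates, p-values measure the spread between these cultures only. The fit was checked on simulated counts drawn without a difference between isolates, so that check does not cover such a difference. Replicate libraries differed by more than counting noise (chi-square per gene 84.0 and 49.4). The 10 genes and the other lists were chosen with earlier results of these data known. All 10 and HMGB1 were named, and from each list the 2 genes with the smallest p. 3′ UTRs are those of GENCODE canonical transcripts on GRCh37, and promoters are from RefSeq. The sequence of 1 further site in a 3′ UTR is not reported here.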

Additional observations from a re-analysis of the deposited data

Results flagged for a closer look

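Of 32 named genes and markers, the 10 genes included, 3 had knockdown differences of opposite sign in the isolates. The log2-fold change of CBX3 was −0.05 in I90-10 and 0.14 in I90-79, a difference of 0.19. That of KMT5C was −0.07 and 0.06, a difference of 0.13, and that of the epithelial marker EPCAM, which was under 1 CPM in every library, −0.12 and 0.29, a difference of 0.40. Each value compares 1 library with 1, and the difference between isolates was not tested. Of all genes tested, 21.7% had opposite signs in the isolates.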

How the results depend on the processing

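Thresholds, the filter and the model moved the counts of calls more than the fold changes. Of the 10 genes, 0 were called in the reported fit and with any 1 library left out, 1 (CBX5) with an adjusted p below 0.05 and any fold change, with DESeq2 and with RUVs and DESeq2, and 2 (SUV39H2 and CBX5) without the filter on low counts and with the replicate block, in edgeR and in DESeq2 alike. Of all genes, 31 were called in the reported fit, 1299 at the looser threshold, 2393 without the filter, 1546 with DESeq2, 1597 with RUVs and DESeq2, 2235 with the replicate block and 2058 with the block in DESeq2. With 1 library left out the count lay between 0, without either knockdown library, and 642 (without the I90-10 control 299, without the I90-79 control 642), and the lone library was then assumed to vary like the other group. The cause of these shifts was not tested. The call of HMGB1 was lost without either knockdown library (adjusted p = 0.0487 and 0.0324 in edgeR). The log2-fold change of CBX3 reversed to −0.06 with RUVs, −0.01 without the I90-10 control and −0.11 without the I90-79 knockdown library, with values from −0.11 to 0.20 when 1 library was left out. Of 132 such values for the 10 genes and HMGB1, 119 kept direction and side of the threshold and 8 passed it only under the alternative. No gene of the 10 was called between isolates under any alternative run.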

Other observations

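Some partner genes were singled out after their values were seen. DAXX, the histone chaperone that works with ATRX, was at 128 and 144 CPM in control and at 187 and 171 CPM in knockdown libraries, both higher (log2-fold change 0.40, SE 0.12, edgeR adjusted p = 0.114, and 0.0226 with the replicate block), whereas ATRX was lower in both isolates. Neither was called. TASOR, the scaffold of the HUSH complex, was at 67.2 and 62.2 CPM in control and 48.0 and 52.0 CPM in knockdown libraries (log2-fold change −0.37, SE 0.12, adjusted p = 0.113), and PPHLN1, another subunit, at 62.0 and 61.3 CPM against 52.9 and 47.0 CPM (−0.30, SE 0.12, adjusted p = 0.170). All 3 HUSH core genes, MPHOSPH8 included, were thus lower in both isolates, and the 3′ UTRs of TASOR and PPHLN1 hold 1 copy of GCAGTT each. Among the demethylase genes, KDM7A was at 14.5 and 13.4 CPM in control and 7.76 and 10.1 CPM in knockdown libraries (−0.64, SE 0.20, adjusted p = 0.108), with 4 copies of the word. PHF8 was at 34.4 and 37.2 CPM against 25.1 and 26.6 CPM (−0.47, SE 0.12, adjusted p = 0.0775), with 1 copy. PHF2, of the same family, was at 57.9 and 53.8 CPM against 51.1 and 48.2 CPM (−0.17, SE 0.11, adjusted p = 0.384), with 0 copies.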
